A study of Homo sapiens with 40 samples.

Results

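The genes described here were 9 of the 60279 listed in the count tables. They comprised 5 genes of γ-secretase subunits (APH1A, APH1B, PSEN2, NCSTN and PSENEN), 3 Notch receptor genes (NOTCH1, NOTCH2 and NOTCH3) and 1 Notch ligand gene (JAG1). They were chosen by the NEB read counts, since APH1A had no read there, so differences from NEB are given as descriptions and nothing is read from them. That reason did not involve the comparison of G&T with Takara, but the genes were chosen with earlier results of these data known. Data came from T47D, an established human breast cancer cell line, taken at passage 10 from 1 culture and sorted by flow cytometry for cells positive for EpCAM and CD49f. The labels name no treatment, and all 3 groups shared this origin. They differed in the full-length mRNA protocol used: G&T, in which mRNA is separated from genomic DNA before amplification, the Takara SMART-seq HT kit, or the NEB single cell kit. The tables held 13 G&T, 13 Takara and 14 NEB cells, of which 11 in each protocol passed the thresholds on library quality.

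The cells of a protocol shared a plate and a run that no other protocol used, and the effects of these cannot be told apart from that of the protocol. A protocol is therefore 1 sample, the SD over cells describes the cells of 1 run, and no test between protocols was possible. Kept libraries held 672328 to 1192383 reads in G&T, 827663 to 1297218 in Takara and 720899 to 1021613 in NEB, while the median number of genes per cell was 11253, 10983 and 5161. ERCC spike-ins, which are synthetic RNAs added to each well, took 1.37 to 2.75% of reads in G&T, 0.538 to 1.33% in Takara and 5.66 to 18.9% in NEB. All 8 luminal epithelial markers checked had reads in each protocol, and PTPRC, PECAM1, KRT5 and KRT14, markers of blood, endothelial and basal cells, had 12 reads or fewer in each. Of the stromal and mesenchymal markers, COL1A1 had 86 to 148 reads per protocol and VIM had 12 reads in G&T cells, 25 in Takara cells and 144 in NEB cells.

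γ-Secretase is a protease embedded in membranes that cuts other proteins within the membrane. It is assembled from a catalytic presenilin, nicastrin, a member of the APH-1 family and PEN-2. Notch receptors are cut by it after binding a ligand on a neighbouring cell, which frees their intracellular domain to enter the nucleus and act with RBPJ on target genes such as those of the HES family. In the mammary gland the pathway is known for its part in the fate of luminal cells.

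APH1A and APH1B are the alternative APH-1 subunits, and the first of them was absent from NEB while the second was not. The start of each coding sequence is shown because reads could be shared between the genes only where they are alike. Both lie in exon 1 of the canonical transcript in GENCODE 44 (GRCh38), APH1A at chr1:150268721-150268810 on the minus strand and APH1B at chr15:63277624-63277713 on the plus strand. Capitals mark the 31 of 90 bases that differ between the pair.
APH1A: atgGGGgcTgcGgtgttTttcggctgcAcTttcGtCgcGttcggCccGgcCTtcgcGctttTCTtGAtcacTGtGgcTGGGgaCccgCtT
APH1B: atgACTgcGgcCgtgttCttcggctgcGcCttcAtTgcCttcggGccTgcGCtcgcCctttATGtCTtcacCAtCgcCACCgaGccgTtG
Over the whole coding sequence, 468 of 771 aligned bases (60.7%) were identical, and the longest identical run was 16 bases.

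APH1A (ENSG00000117362; chromosome 1, 150265399 to 150269580) had reads in each of the 11 G&T and 11 Takara cells and in none of the 11 NEB cells. Its level, in counts per 1e6 reads on genes (CPM), was 8.37 in the lowest G&T cell, 131 in the median cell and 176 in the highest. In Takara the lowest, median and highest cells had 42.0, 102 and 147 CPM. The Takara range thus lay inside that of G&T, which had cells both below and above it. With the reads of all cells pooled, 955 in G&T and 1201 in Takara, the level was 101 CPM (95% Poisson interval 94.2 to 107) and 103 CPM (96.8 to 108), a ratio of 0.981 (0.900 to 1.07). These intervals, and those on ratios and shares of cells, cover counting error alone, since reads without molecular identifiers are not independent molecules. The absence of reads in NEB allows a pooled level of up to 0.376 CPM, taking 3 reads as the limit of a count of 0. On that limit APH1A was at least 267-fold higher in G&T and at least 272-fold higher in Takara. The limit, and every bound that rests on it, covers counting error alone. Reads can come many to a cell, as the 108 reads of APH1B in NEB cell C1 did. The absence of reads also allows a share of up to 28.5% of NEB cells with a read (exact binomial interval). Of all 4875 genes with reads in every kept G&T and Takara cell, 138 (2.83%) had no NEB read, and of 7425 genes with at least 100 reads in both, 451 (6.07%) had none. Of its exon bases, 14.1% overlapped C1orf54 on the opposite strand, and the strand setting of the counts is not given in the sources used here.

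APH1B (ENSG00000138613; chromosome 15, 63276018 to 63309126) was found in 8 G&T, 11 Takara and 4 NEB cells. Its lowest, median and highest values were 0, 13.7 and 82.6 CPM in G&T, 2.80, 24.8 and 34.6 CPM in Takara, and 0, 0 and 165 CPM in NEB. The 3 protocols overlapped, and single cells carried much of the pooled level: 43.2% of the G&T reads came from cell B1 and 52.2% of the NEB reads from cell C1. Pooled, it reached 20.2 CPM in G&T, 18.6 CPM in Takara and 26 CPM in NEB. Without B1 the G&T level was 12.8 CPM, and without C1 the NEB level was 13.5 CPM. The ratio of G&T to Takara was 1.09 (0.890 to 1.32).

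PSEN2 (ENSG00000143801; chromosome 1, 226870184 to 226927726) encodes presenilin-2, a catalytic subunit. It had 149 reads in 9 G&T cells, 746 reads in all 11 Takara cells and none in NEB. The lowest, median and highest cells had 0, 8.95 and 51.7 CPM in G&T and 21.7, 59.9 and 121 CPM in Takara. The ranges overlapped, and the median Takara cell lay above the highest G&T cell. G&T cells averaged 17.7 ± 18.5 CPM (SD, n = 11 cells) and Takara cells 64.0 ± 32.9 CPM, a gap larger than either SD, and the pooled level was 4.06-fold higher in Takara (3.40 to 4.87). On the limit of 3 reads, PSEN2 was at least 41.7-fold higher in G&T and at least 169-fold higher in Takara than in NEB.

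NCSTN (ENSG00000162736; chromosome 1, 160343294 to 160358952) encodes nicastrin, which takes part in substrate binding. It ranged from 8.17 to 84.3 CPM in G&T cells with a median of 36.9 CPM, and from 93.2 to 290 CPM in Takara cells with a median of 157 CPM. Every Takara cell was above every G&T cell. Of all 18659 genes compared between the pair, 0.991% were separated in this way with Takara higher and 0.525% with G&T higher. NCSTN was the only one of the 9 genes separated in either direction. The pooled level was 4.75-fold higher in Takara (4.24 to 5.34). In NEB the gene had reads in 6 cells, between 1.52 and 116 CPM, and the other cells had none. Its pooled NEB level of 30.4 CPM was close to the 36.5 CPM of G&T (ratio of G&T to NEB 1.20, 1.02 to 1.42), although it was found in every G&T cell.

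PSENEN (ENSG00000205155; chromosome 19, 35745600 to 35747519) encodes PEN-2, the smallest subunit. Its lowest, median and highest cells had 1.31, 9.39 and 37.7 CPM in G&T, 14.7, 45.4 and 81.5 CPM in Takara, and 0, 3.06 and 32.4 CPM in NEB. The mean was 15.2 ± 12.1 CPM in G&T and 46.0 ± 16.7 CPM in Takara, so here too the gap exceeded either SD. The pooled level was 2.89-fold higher in Takara (2.41 to 3.48). Of its exon bases, 52.2% overlapped other annotated genes, one of them on the same strand, and STAR's gene counts leave out reads that fall on more than one gene. The share of reads left out as ambiguous had a median of 8.31% for G&T cells, 10.6% for Takara cells and 5.67% for NEB cells, and its part in the PSENEN values was not tested.

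**Figure D1:**
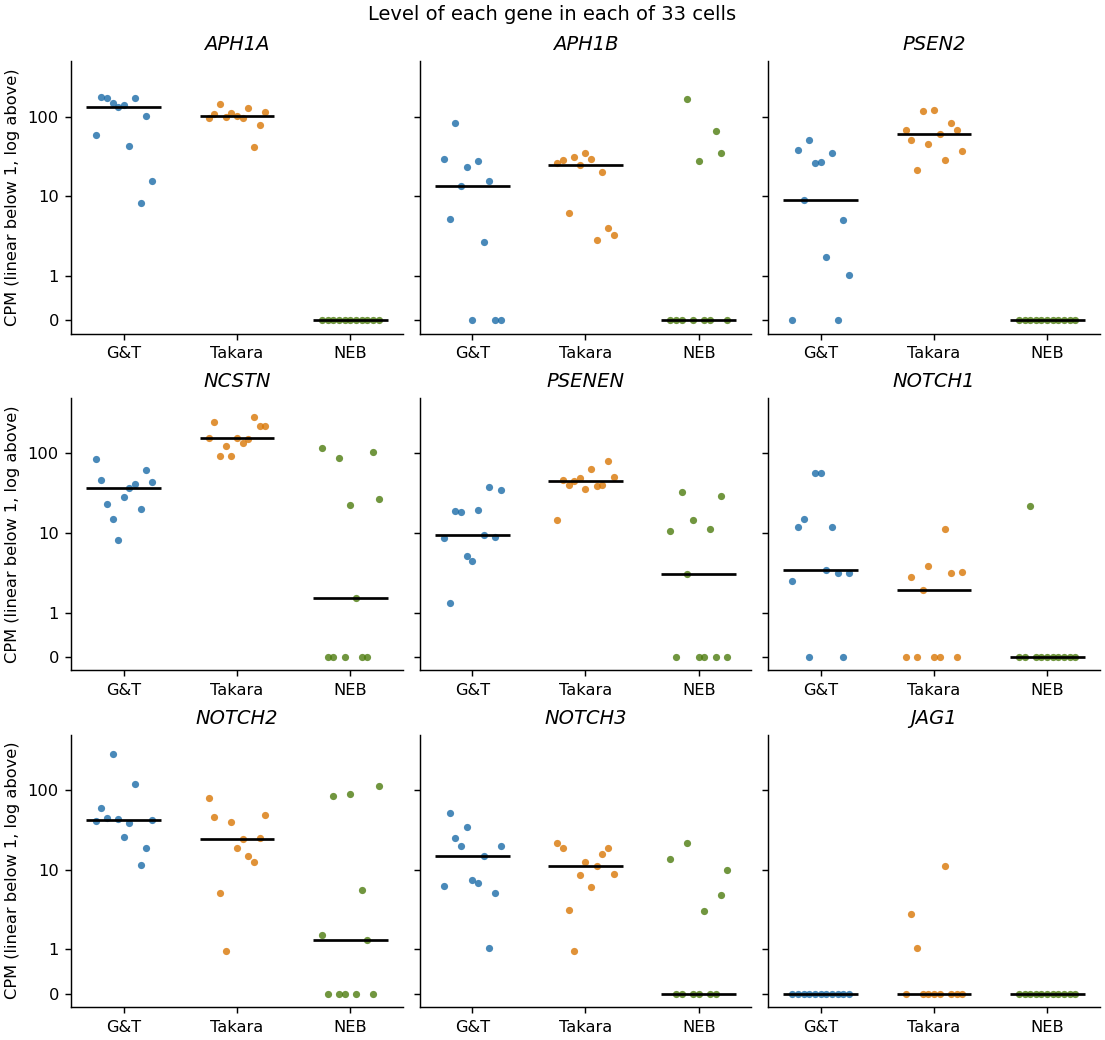
CPM of each of the 9 genes (vertical axis, linear below 1 CPM and logarithmic above) in each kept cell by protocol (11 points each, with a black bar at the median). No NEB cell had a read of APH1A or PSEN2, and every Takara cell was above every G&T cell for NCSTN.

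Levels were set beside each other between genes after division by transcript length, here as CPM per kb of the canonical transcript (RPKM). This does not allow for base composition, or for the PSENEN exon bases that overlap other genes. In Takara, NCSTN (61.5 RPKM) and APH1A (59.3 RPKM) were highest, followed by PSENEN (41.7 RPKM) and PSEN2 (28.3 RPKM), with APH1B at 4.50 RPKM. NCSTN and APH1A did not differ beyond the spread between cells, nor did PSENEN and PSEN2, whereas the gaps from APH1A to PSENEN and from PSEN2 to APH1B exceeded it. In G&T, APH1A stood alone at 58.1 RPKM, and the gap to PSENEN (14.4 RPKM) exceeded the SD of both. NCSTN followed at 12.9 RPKM, PSEN2 at 6.97 RPKM and APH1B at 4.88 RPKM, each within the spread between cells of its neighbour. In NEB the order was NCSTN (10.8 RPKM), PSENEN (7.59 RPKM) and APH1B (6.27 RPKM), with APH1A and PSEN2 at 0, and no neighbours differed beyond their spread. APH1A exceeded APH1B per length by 11.9-fold in G&T (10.2 to 14) and 13.2-fold in Takara (11.4 to 15.3). Dividing by the length of all annotated exons instead moved these ratios to 7.80 and 8.63 and placed PSENEN first in Takara at 34.5 RPKM, ahead of APH1A at 29.5 RPKM and NCSTN at 15.1 RPKM. In NEB the order became PSENEN (6.28 RPKM), APH1B (4.77 RPKM) and NCSTN (2.64 RPKM). In G&T, NCSTN (3.18 RPKM) and PSEN2 (0.957 RPKM) came to lie below APH1B (3.71 RPKM).

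**Figure D2:**
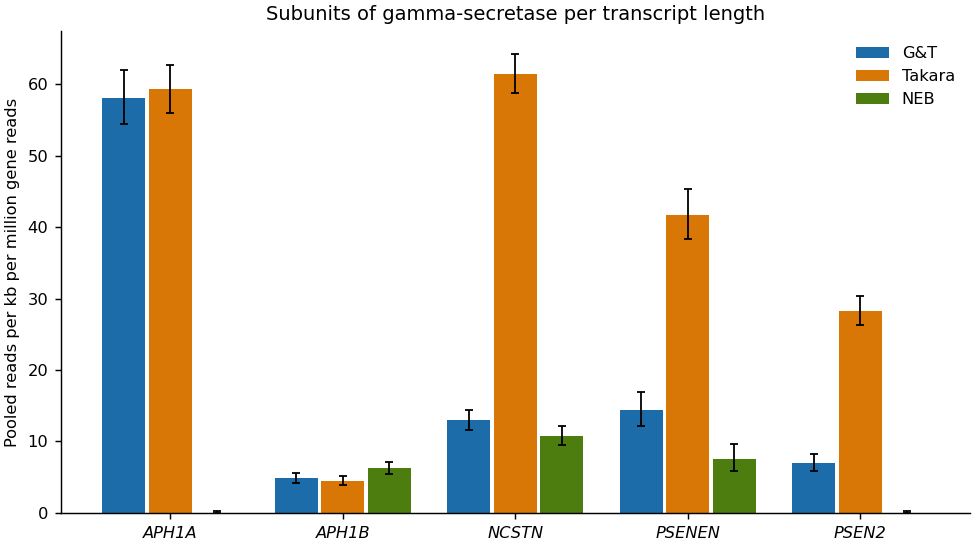
Pooled RPKM (vertical axis) of the γ-secretase subunit genes in G&T, Takara and NEB, with 95% counting intervals as error bars. APH1A stood at 58.1 (G&T), 59.3 (Takara) and 0 (NEB), whereas NCSTN, PSENEN and PSEN2 were each highest in Takara.

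Across the cells of a protocol, APH1A and PSEN2 gave the highest of 28 pairwise correlations in G&T and the lowest in Takara. In G&T the 4 cells with the least APH1A (A1, D2, E2 and H1) were also the 4 with the least PSEN2, and Spearman's rho between the genes was 0.83 over 11 cells. In Takara it was -0.76 over 11 cells. APH1A rose with the number of genes detected in the cell in both protocols (rho 0.85 and 0.72), while PSEN2 did so in G&T (0.73) and went the other way in Takara (-0.80). All cells of a protocol share 1 run, and the 28 pairs among the 8 genes other than JAG1 had rho from -0.58 to 0.83 in G&T and from -0.76 to 0.73 in Takara, with medians of 0.06 and -0.12. The difference between protocols was not tested.

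The Notch receptor genes went the other way from the catalytic and PEN-2 subunits, with pooled levels higher in G&T than in Takara, but for each of them the gap lay within the spread between cells. NOTCH1 (ENSG00000148400; chromosome 9, 136494433 to 136546048) had reads in 9 G&T, 6 Takara and 1 NEB cell. Its lowest, median and highest cells had 0, 3.43 and 57.0 CPM in G&T and 0, 1.93 and 11.2 CPM in Takara. All 15 NEB reads came from cell B1. The pooled level was 14.5 CPM in G&T, 2.48 CPM in Takara and 1.88 CPM in NEB, which put G&T 5.87-fold above Takara (3.91 to 9.09). Cell C1 held 39.9% of the G&T reads, and without it the G&T level was 9.74 CPM. Cell E1 held 41.4% of the Takara reads, and without it the Takara level was 1.60 CPM. The log2 ratio was 2.16 with all kept cells, 1.63 without C1 and 2.58 without E1. The mean was 14.9 ± 21.2 CPM in G&T and 2.38 ± 3.32 CPM in Takara.

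NOTCH2 (ENSG00000134250; chromosome 1, 119911553 to 120100779) was the most abundant of the receptor genes per length in each protocol, at 5.30 RPKM in G&T, 2.54 RPKM in Takara and 2.52 RPKM in NEB. The gap to NOTCH3, the next receptor gene, lay within the spread between cells in each protocol. NOTCH2 was found in 11 G&T, 11 Takara and 6 NEB cells. Its lowest, median and highest cells had 11.5, 42.5 and 289 CPM in G&T, 0.967, 24.4 and 80.3 CPM in Takara, and 0, 1.32 and 114 CPM in NEB. In NEB 3 cells (B1, D1 and H2) held 85.5 to 114 CPM and the rest 5.60 CPM or less. Pooled, G&T was 2.09-fold above Takara (1.82 to 2.39) and 2.10-fold above NEB (1.80 to 2.46). Cell B2 held 33% of the G&T reads, and without it the log2 ratio fell from 1.04 to 0.57 against Takara and to 0.58 against NEB, under the 2-fold line. It also fell under that line against Takara without any one of G&T E1 and Takara B1, B2, D1, E1 and E2, and against NEB without any one of G&T E1 and NEB A1, A2, C1, C2, D2, E1, E2 and G2. The paralogous gene NOTCH2NLA, whose sequence is near identical to part of NOTCH2, had 9 reads in G&T, none in Takara and 1 in NEB.

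NOTCH3 (ENSG00000074181; chromosome 19, 15159038 to 15200995) had reads in 11 G&T, 11 Takara and 5 NEB cells. The lowest, median and highest cells had 1.05, 14.8 and 51.2 CPM in G&T, 0.967, 11.2 and 21.5 CPM in Takara, and 0, 0 and 21.4 CPM in NEB. G&T and Takara overlapped over most of their range, and the pooled ratio was 1.5 (1.19 to 1.90). G&T was 3.93-fold above NEB (2.72 to 5.84) and Takara 2.62-fold (1.80 to 3.92). Cell C1 held 14 of the 35 NEB reads, and the NEB level was 4.39 CPM with it and 2.87 CPM without it.

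JAG1 (ENSG00000101384; chromosome 20, 10637684 to 10673999), a ligand of Notch receptors, was barely seen in any protocol. It had 16 reads in 3 Takara cells, of which 75.0% came from cell E1, and none in G&T or NEB, where a count of 0 allows up to 0.316 and 0.376 CPM. The pooled Takara level was 1.37 CPM, or 0.376 CPM without E1, at least 4.32-fold above G&T and at least 3.63-fold above NEB with that cell. No ratio of G&T to NEB is given. The ligand gene JAG2 had pooled levels of 26.1 CPM in G&T, 22.7 CPM in Takara and 4.39 CPM in NEB. Cell C1 held 46.0% of its G&T reads and D1 77.1% of its NEB reads, and without them the levels were 15.7 CPM in G&T and 1.14 CPM in NEB. DLL1 had 31.5 CPM in G&T and 32.6 CPM in Takara, in 9 cells of each, and no read in NEB. On the limit of 3 reads its NEB level was at least 83.7-fold and 86.7-fold lower. DLL3, DLL4 and NOTCH4 had 6 reads or fewer in each protocol.

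**Figure D3:**
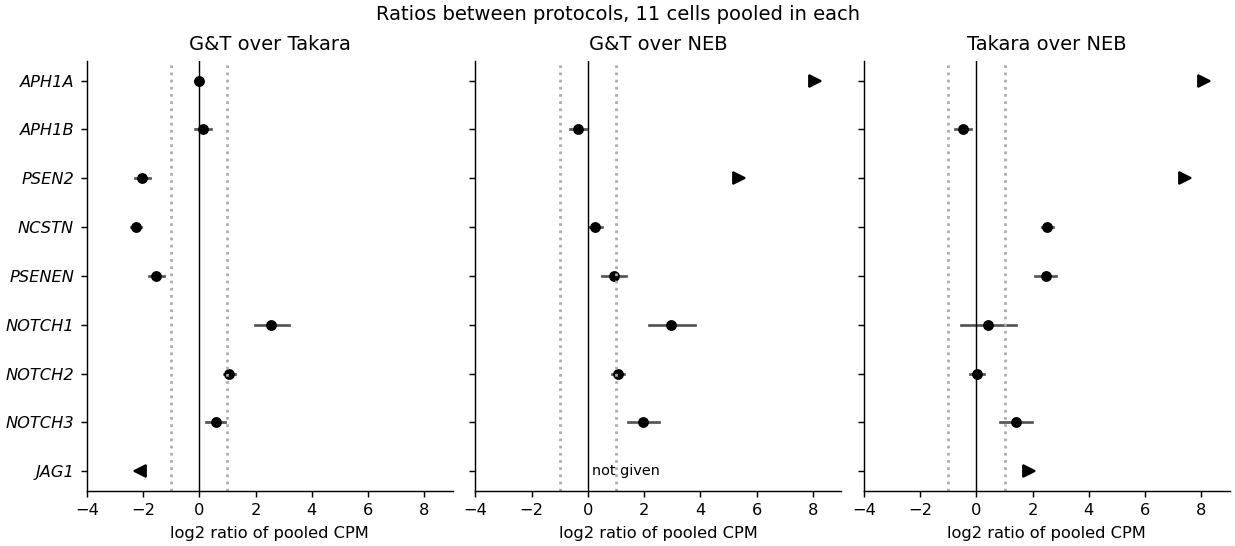
Log2 ratio of pooled CPM (horizontal axis) for each pair of protocols, without a pseudocount, as points with 95% counting intervals or, where a group had no read, as triangles at the bound set by 3 reads (dotted lines at 2-fold). PSEN2, NCSTN and PSENEN lay on the Takara side in the first panel and NOTCH1 and NOTCH2 on the G&T side, while APH1A and APH1B lay near 0.

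For counts over all genes, a difference was taken as past 2-fold on the scale of log2(pooled CPM + 1). Between G&T and Takara, 5 of the 9 genes were past 2-fold, 2 higher in G&T (NOTCH1 and NOTCH2) and 3 higher in Takara (PSEN2, NCSTN and PSENEN). Of all 18659 genes, 30.3% were past 2-fold, 17.5% higher in G&T and 12.8% higher in Takara. JAG1, at 1.37 CPM in Takara, was not past 2-fold on this scale. The median log2 ratio of the 9 genes was -0.03, against 0.18 over all genes. The 3 genes higher in Takara and NOTCH1 stayed past 2-fold with each cell left out in turn. For PSEN2, NCSTN and PSENEN the gap between means exceeded both SDs. Against NEB, 8 of the 9 genes could be compared with G&T, and 5 were past 2-fold, with G&T higher for all 5. Of all 18022 genes, 49.3% were past it, 33.8% higher in G&T and 15.4% higher in NEB. Of the 9 compared with Takara, 5 were past 2-fold, with Takara higher for all 5. Of all 15647 genes, 54.7% were past it, 34.4% higher in Takara and 20.3% higher in NEB. The median log2 ratios were 1.40 for the 8 genes over NEB in G&T and 1.22 for the 9 in Takara, against 0.42 and 0.29 over all genes. Every G&T cell was above every NEB cell for 1 of the genes (APH1A), where 2.72% of all genes were, and every Takara cell for 2 (APH1A and PSEN2), where 7.27% were. The reverse held for none of the 9 genes, and for 0.843% of all genes against G&T and 1.39% against Takara. These NEB values rest on the contrast that chose the genes.

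The other genes of the pathway, 51 in 7 lists, had reads in 47, 46 and 34 cases (G&T, Takara and NEB) and reads in every cell in 20, 24 and 7 cases. Over all listed genes, 37.2%, 29.9% and 20.7% had reads. Of all genes with a read in the protocol, 24.9%, 36.7% and 11.1% had reads in every cell. Of 46 pathway genes compared between G&T and Takara, 11 were past 2-fold higher in G&T and 10 higher in Takara. Over all genes, 17.5% were higher in G&T and 12.8% in Takara. The median log2 ratio of the pathway genes was 0.20 against 0.18 over all genes. Of 45 compared between G&T and NEB, 17 were higher in G&T and 9 in NEB, where 33.8% and 15.4% of all genes were. Of 44 compared between Takara and NEB, 17 were higher in Takara and 10 in NEB, where 34.4% and 20.3% of all genes were. The median log2 ratios of the pathway genes were 0.48 and 0.30, against 0.42 and 0.29 over all genes.

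Among genes that act on the receptors before γ-secretase, ADAM10, a protease that cuts the ligand-bound receptor outside the membrane, had 37.4 CPM in G&T, 60.3 CPM in Takara and 115 CPM in NEB. ADAM17, a related protease, had 13.2 and 4.95 CPM in G&T and Takara and no read in NEB. The glycosyltransferase gene POGLUT1 had 41.7, 29.2 and 83.9 CPM in G&T, Takara and NEB, whereas LFNG, another glycosyltransferase gene, had 13.3, 2.48 and 0 CPM. Of the genes for trafficking and ubiquitin ligases, ITCH had 80.5 CPM in G&T, 36.4 CPM in Takara and 129 CPM in NEB. NUMB, which encodes an inhibitor of Notch, had 38.8, 83.2 and 32.5 CPM, and DTX2 had 12, 32.3 and 0 CPM. ADAM10, POGLUT1 and ITCH were highest in NEB, but for each the gaps to G&T and to Takara lay within the larger SD over cells. ADAM17, LFNG and DTX2 were named because they had no read in a protocol, so their absence from NEB was fixed by that rule.

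In the nucleus, RBPJ, which encodes the DNA-binding partner of the freed Notch domain, had 56.3 CPM in G&T, 53.1 CPM in Takara and 98.1 CPM in NEB. SNW1, a cofactor gene, had 123, 141 and 447 CPM. The target gene HES1 had 55.3 CPM in G&T, 11.9 CPM in Takara and 9.16 CPM in NEB, and 57.3% of its G&T reads came from cell H1, without which the G&T level was 26.2 CPM. HES4 had 18.7 CPM in G&T, 16.4 CPM in Takara and no read in NEB, and HEY1 had no read in any kept cell. Of 7 target genes, G&T and Takara cells had reads of 4 each and NEB cells of 2.

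Of the substrates of γ-secretase, APLP2, a relative of the amyloid precursor gene, had 520 CPM in G&T, 633 CPM in Takara and 373 CPM in NEB. CDH1, which encodes E-cadherin, had 222, 176 and 481 CPM. Of the genes for its assembly and trafficking, TMED2 and TMED10, which encode cargo receptors of the early secretory pathway, had 321 and 251 CPM in G&T, 1034 and 583 CPM in Takara, and 1406 and 1213 CPM in NEB. For both TMED genes every Takara cell was above every G&T cell, as for NCSTN.

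Over the kept cells, 8 of the 9 genes had a read in G&T, where 37.2% of all listed genes did, 9 had one in Takara (29.9% of all) and 6 had one in NEB (20.7% of all). Reads in every kept cell were found for 5, 7 and 0 of them. Of all genes with a read in the protocol, those with reads in every cell made up 24.9% (G&T), 36.7% (Takara) and 11.1% (NEB). Counted per cell, 7.36 ± 0.674 of the 9 genes (SD, n = 11 cells) had a read in G&T cells, 7.82 ± 0.751 in Takara cells and 2.55 ± 1.29 in NEB cells. The ranges were 6 to 8, 7 to 9 and 0 to 4, so every NEB cell had fewer of the genes than any other cell, as fixed in part by the choice of APH1A. Of 99 pairs of gene and cell per protocol, G&T detected 81 (81.8%), Takara 86 (86.9%) and NEB 28 (28.3%). Within a protocol, Spearman's rho between this number and all genes detected in the cell was 0.38 (G&T), 0.72 (Takara) and -0.31 (NEB), each over 11 cells of 1 run. In NEB the cell with 0 of the 9 genes, A2, still had 5612 genes, above the NEB median of 5161. Thinning every library to the smallest kept one left the means at 7.26, 7.68 and 2.5.

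**Figure D4:**
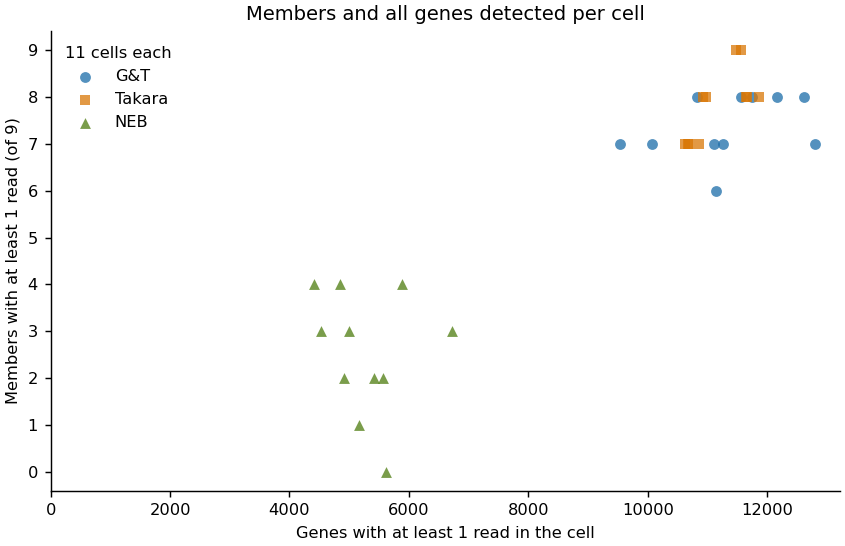
Number of the 9 genes with at least 1 read (vertical axis) against all genes with at least 1 read (horizontal axis) in each of 11 cells per protocol. NEB cells held 0 to 4 of the genes at 4416 to 6719 genes in all, and G&T and Takara cells 6 to 9 at 9541 to 12794.

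The 9 genes differed in base composition, which moved with detection in NEB over the protein-coding genes with many reads in the other protocols. Among 7226 protein-coding genes with at least 100 reads in both G&T and Takara, the share with no NEB read was 0.747% where the canonical transcript had under 40% GC, 1.08% at 40 to 45%, 3.29% at 45 to 50%, 6.02% at 50 to 55%, 12.1% at 55 to 60% and 22.5% at 60% or more. The mean number of NEB cells with a read fell from 7.69 to 2.69 of 11 between the first and the last of these classes. The median log2 ratio of G&T to Takara moved with GC as well. It was 0.15 under 40%, -0.34 at 50 to 55%, -0.49 at 55 to 60% and -0.55 at 60% or more. The part of GC in the differences between G&T and Takara was not tested. Over these genes Spearman's rho between GC and the number of NEB cells was -0.44, and between transcript length and that number -0.03. Length was nevertheless related to detection, though not in one direction: the share with no NEB read was 3.79% under 1500 bases, 8.46% at 1500 to 2500, 8.08% at 2500 to 3500, 6.51% at 3500 to 5000 and 3.82% at 5000 or more. The canonical transcripts of APH1A (1730 bases) and PSEN2 (2249 bases) lay in the class with the highest share. These are genes of the same libraries and not independent. NOTCH1 and JAG1, with 29 and 16 reads in Takara, were not among them.

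The transcripts of APH1A (54.7% GC) and PSEN2 (55%) lay higher than that of APH1B (42.0%), which had NEB reads. PSENEN (47.5%), NOTCH2 (49.4%) and NCSTN (50.3%), each with reads in 6 NEB cells, lay between. Over the coding sequence alone, PSENEN and APH1A were alike at 56.1% GC. By that measure PSEN2 had 58%, NOTCH2 53.7%, NCSTN 51.3% and APH1B 47.7%. The share without NEB reads was 6.02% in the class of APH1A, 50 to 55%, and 12.1% in that of PSEN2, 55 to 60%. Over all genes with at least 100 reads in both other protocols it was 6.07%. DLL1 (59.5%), LFNG (63.1%), DTX2 (62.5%) and HES4 (73.8%), with no NEB read, lay above APH1A, as did NOTCH1 (63.5%), with reads in 1 NEB cell. Other genes did not follow this order. NOTCH3 (63.1%) had reads in 5 NEB cells, JAG2 (64.1%) in 4 and KRT19 (61.8%) in all 11, while ADAM17 (42.1%) had none in NEB. DLL1, LFNG, DTX2, HES4 and ADAM17 met the naming rule of at least 100 reads in one protocol and none in another. Their lack of NEB reads was part of that rule, and nothing is read from it. The pooled levels of NOTCH3 were 4.39 CPM in NEB, 17.3 CPM in G&T and 11.5 CPM in Takara. Those of KRT19 were 566, 2756 and 7986 CPM, so both were lowest in NEB. The part of GC or length in the absence of APH1A and PSEN2 was not tested.

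**Figure D5:**
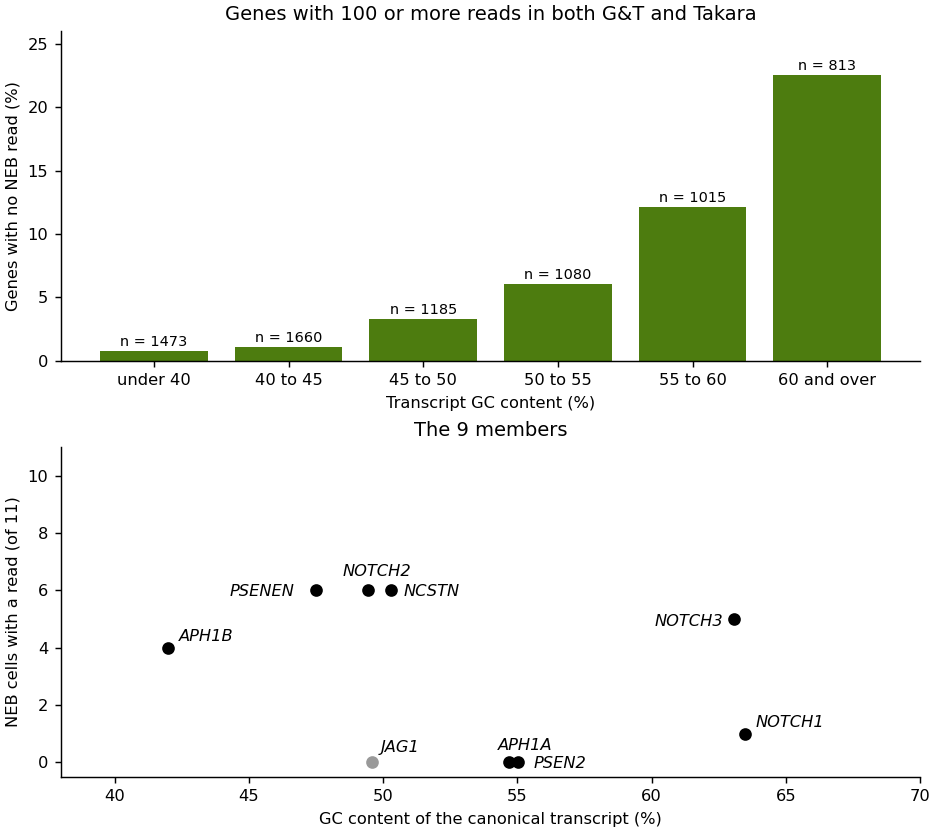
Top, share of genes with no NEB read (vertical axis) by class of transcript GC content for protein-coding genes with at least 100 reads in both G&T and Takara, rising from 0.747% to 22.5%. Bottom, number of NEB cells with a read (vertical axis) against transcript GC for the 9 genes, with JAG1, which had few reads in any protocol, in grey.

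Over the 33 cells, the 5 genes whose log2(CPM + 1) values were nearest to those of APH1A were PLEKHJ1, PKP3, ABHD12, CDK16 and PTBP1. The root mean square difference from APH1A was 0.69 for PLEKHJ1, 0.75 for PKP3, 0.78 for ABHD12, 0.81 for CDK16 and 0.81 for PTBP1, on the log2 scale. These cells include the NEB cells without APH1A reads that chose the gene, so nearness to it required few NEB reads: PLEKHJ1, PKP3 and CDK16 had 0 and ABHD12 and PTBP1 had 1. None of the 9 genes or of the 51 other pathway genes was among the 5.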

How the data were processed

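The study sequenced mRNA of single T47D cells, and 13 G&T, 13 Takara and 14 NEB cells were analysed here. SMART-Seq3 cells were not analysed here. Raw read counts per gene and cell were deposited by the authors in 1 table per protocol, made by trimming the reads and aligning with STAR to GRCh38, with no filter on cells. The annotation release and strand setting are not given in the sources used here. Cells with under 1000 genes, under 600000 reads on genes and 92 ERCC spike-ins, over 30% mitochondrial or over 25% ERCC reads were removed (2 G&T, 2 Takara, 3 NEB). The 4 rows of unassigned reads were left out of totals.

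The genes, the pathway lists and the rules were chosen with earlier results of these data known. Named genes are the 9 members, their families, the 2 most abundant genes of each pathway list, list genes with at least 100 reads in one protocol and none in another, and the 5 genes most like APH1A. NOTCH2NLA, HEY1 and the marker genes were named outside that rule, and 1 gene that the rule names is not reported here.

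Reads were pooled over the kept cells in CPM of reads on genes, with exact 95% Poisson intervals, exact binomial intervals for shares of cells and for ratios, a limit of 3 reads for a count of 0, and 1 CPM added for calls past 2-fold. No p-values were computed, because cells of 1 culture, plate and run are not replicates. A gap was set beside the larger SD over cells. Gene coordinates, lengths, GC and sequences came from GENCODE 44 on GRCh38. Alternatives covered the cells kept, denominators, TMM factors, pseudocount, averaging over cells, low counts, depth, detection at 5 reads and leaving out each cell. An alternative length of genes, and pathway genes without each cell, were added after seeing the data. The ratios, their intervals and the thinning were tested on simulated counts drawn independently. Such counts do not cover reads that come many to a cell. TMM factors came from edgeR 4.0.16 in R 4.3.3, and the rest was done in Python 3.11.15 (scipy 1.17.1, pandas 2.3.3, numpy 2.4.6, Biopython 1.88 and matplotlib 3.10.9).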

Additional observations from a re-analysis of the deposited data

Results flagged for a closer look

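The cells removed for library quality lay outside every comparison, and some of them held more reads of these genes than the 3 that a count of 0 allows. In the removed G&T cell C2, which had 33.7% mitochondrial reads, there were 4 reads of APH1A, 20 of PSEN2, 53 of NCSTN, 4 of NOTCH1, 16 of NOTCH2 and 18 of NOTCH3. In the removed G&T cell F1, whose library held 596867 reads, there were 22 reads of APH1A, 6 of PSEN2, 6 of NCSTN, 16 of PSENEN, 12 of NOTCH2 and 6 of NOTCH3. In the removed NEB cell F2, whose library held 584698 reads, there were 22 reads of NOTCH2 and none of the other genes. The removed NEB cells B2 and F1 and the removed Takara cells C2 and F1 held no read of any of the 9 genes. APH1A and PSEN2 therefore had no read in any of the 14 deposited NEB cells.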

How the results depend on the processing

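No paired analysis was possible because well names are positions on separate plates and no test was made. The number of the 9 genes past 2-fold was 4 to 6 for G&T over Takara, against 5, 4 to 5 for G&T over NEB, against 5, and 5 to 6 for Takara over NEB, against 5, under all deposited cells, reads on genes and ERCC spike-ins as the denominator, TMM factors, a pseudocount of 0.1 CPM, the mean of cell CPM, and a minimum of 10 reads. Leaving out 1 cell at a time gave 4 to 5, 4 to 6 and 5 to 6. Of 26 log2 ratios none reversed among those past 2-fold. NOTCH2 fell below 2-fold over Takara with all cells (0.93) and TMM factors (0.97), and over NEB (0.97 and 0.94). JAG1 passed it in Takara at a pseudocount of 0.1 CPM (-1.82 for G&T over Takara, 1.62 for Takara over NEB). PSENEN passed it in G&T over NEB without NEB B1 (1.24) or G2, and NOTCH1 in Takara over NEB without NEB B1 (1.30). At a pseudocount of 0.1 CPM, 48.7% of all genes were past 2-fold between G&T and Takara, against 30.3%. With spike-ins in the denominator, the median shift of all log2 ratios over NEB was 0.10 in G&T and 0.14 in Takara.

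The mean number of the 9 genes per cell moved beyond the SD at a minimum of 5 reads in G&T (6.18) and Takara (6.82) and with all deposited cells in Takara (6.62). Without 1 cell it was 7.3 to 7.5 for G&T, 7.7 to 7.9 for Takara and 2.4 to 2.8 for NEB. Genes with a read in any cell numbered 8 (G&T), 9 (Takara) and 6 (NEB) under each alternative, or 5 in NEB without B1. APH1A over APH1B per length became 7.80 in G&T and 8.63 in Takara with all annotated exons as the length. By counting error alone, depth limits what a count of 0 shows to the levels of 0.256 to 0.376 CPM that 3 reads make. These levels do not allow for reads that come many to a cell.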
